A study of Homo sapiens with 33 samples.

Results

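The genes described here are 40 targets and effectors of ATF4 and of the unfolded protein response, taken by symbol from a list of names. Each was read from the probe set with a single gene symbol that had the highest mean deposited log2 value over all arrays. For SLC7A11 another probe set is brighter in mean signal units, at 289 against 228 for the one used. Of the 40 genes, 39 had such a probe set, among 19775 genes on the array, and GPT2 is not analysed here. The list has an amino acid arm of 27 genes, of which 26 were measured, and an unfolded protein arm of 13 genes, all measured. The amino acid arm holds 8 transcription factors and feedback regulators, 10 measured enzymes of amino acid and one-carbon metabolism, 4 transporters and 4 other targets. The unfolded protein arm holds 3 sensors and factors, 7 chaperones and folding enzymes and 3 genes of protein degradation.

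Total RNA of THP-1 cells, an established human monocytic leukaemia line, was hybridised to 33 Affymetrix arrays, 1 per culture well. At 40 h, 5 wells held retinoic acid (RA, a nuclear receptor ligand, 20 nM) plus tumour necrosis factor (TNF, an inflammatory cytokine, 5 ng per ml). Another 5 wells held TNF, 5 held RA and 6 held the vehicle, 0.1% ethanol. RA was given at the start and again after 16 h, and TNF was present for 24 h. In the RA time course 2, 2, 3 and 2 wells were harvested after 2, 6, 16 and 40 h of RA, and were set against 8 vehicle wells, 5 of them harvested at 16 h and 3 at 40 h. The titles of these 8 vehicle wells read Control 0 hr. The 2 RA wells and 3 vehicle wells of 40 h in the time course also belong to the 40 h experiment. The labels call each replicate an independent well, and all wells are of 1 cell line, so p-values measure the spread between wells of that line.

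Cells that lack an amino acid, or whose endoplasmic reticulum (ER) holds unfolded protein, phosphorylate the translation factor eIF2alpha through separate kinases. General translation then drops while ATF4 mRNA is translated, and the ATF4 protein activates genes that make, import and load amino acids. Unfolded protein in the ER also activates the IRE1 and XBP1 branch and the ATF6 branch, which act on chaperone and degradation genes.

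Motifs known for the 2 arms were looked up in RefSeq promoter windows (GRCh38.p14) that run from 250 bases before to 50 bases after each gene's start, on both strands. Windows were held for 20 of the amino acid genes and for all 13 unfolded protein genes. The core of the C/EBP-ATF response element, TGATGNAA, which ATF4 with a C/EBP partner is known to bind, was present in 5 of the 20 amino acid windows (25%), in 1 of the 13 unfolded protein windows (7.69%) and in 1003 of all 27305 windows (3.67%). The 5 genes were ATF3, ASNS, SLC3A2, SLC7A1 and CHAC1, and the other gene was HERPUD1. The ER stress response element, a known site of ATF6 in which CCAAT and CCACG stand 9 bases apart, was present in the windows of XBP1, HSPA5 and HSP90B1 (3 of 13, 23.1%), in none of the 20 amino acid windows and in 22 of all windows (0.0806%). The motif TGACGTGG, which XBP1 and ATF6 are known to bind, was present in HYOU1 and in 217 of all windows (0.795%). A match of letters is a description of the sequence, and no 2 of the motifs overlap in the stretches shown.

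The core element, or its reverse complement, is in capitals in the following 4 stretches, shown because the results below turn on these genes.
ASNS: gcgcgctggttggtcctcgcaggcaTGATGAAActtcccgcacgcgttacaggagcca
CHAC1: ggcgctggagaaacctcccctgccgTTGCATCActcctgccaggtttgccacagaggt
ATF3: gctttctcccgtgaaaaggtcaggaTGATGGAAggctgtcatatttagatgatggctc
HERPUD1: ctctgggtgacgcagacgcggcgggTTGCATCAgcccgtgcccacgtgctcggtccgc
The stretches lie at chr7:97872444-97872501 (minus strand), chr15:40953237-40953294, chr1:212565191-212565248 and chr16:56931941-56931998 (plus strand). HERPUD1, a gene of the unfolded protein arm, carries the reverse complement of the amino acid arm's element in the same letters as CHAC1.

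The ER stress response element is in capitals in 3 chaperone and factor genes, shown for contrast with the stretches above.
HSPA5: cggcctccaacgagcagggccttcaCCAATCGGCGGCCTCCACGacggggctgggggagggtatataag
XBP1: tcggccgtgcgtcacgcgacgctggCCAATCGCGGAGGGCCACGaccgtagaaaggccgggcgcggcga
HSP90B1: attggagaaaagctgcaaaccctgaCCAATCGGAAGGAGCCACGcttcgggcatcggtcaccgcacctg
HSP90B1 holds the element once more in its window, on the other strand. The 3 stretches lie at chr9:125241366-125241434 and chr22:28800578-28800646 (minus strand) and at chr12:103930191-103930259 (plus strand).

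By the labels' array record numbers, 12 arrays form 1 run and 21 form another, here array set 1 and array set 2. Set 1 holds wells 1 to 3 of each 40 h group, and set 2 holds the rest of those groups and the whole time course. Values per well are scanner signal units, recovered from the deposited values, and fold changes are on the deposited scale, the log2 ratio of a probe set's signal to the median of its own array. These medians lay between 18.9 and 45.2 signal units. The log2 ratio of the 3' to the 5' ACTB control probe set, a sign of RNA quality, was 0.51 ± 0.28 over the 21 arrays of set 2 and 1.31 ± 0.33 (SD) over the 12 of set 1. Monocytic marker genes were present, with a median signal of 640.4 units over 7 genes and the lowest at 31.7 for MPO. The markers of other cell types had a median of 21.3 units over 15 genes, with NKG7 highest at 237 and PPBP lowest at 5.19. Summed monocytic marker signals ranged from 15331 to 19318 units in RA plus TNF wells, from 9513 to 12398 in TNF wells, from 10876 to 16566 in RA wells and from 6660 to 8830.1 in vehicle wells. Summed signals of the other markers ranged from 634.7 to 770.3 units in RA plus TNF wells, from 626 to 858 in TNF wells, from 439 to 656 in RA wells and from 477 to 895 in vehicle wells. The part of either list in the results was not tested. In bulk RNA, fewer cells of a type and less RNA per cell cannot be told apart.

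Well 1 of the 40 h vehicle group stood apart in the amino acid arm. It was the highest of the 6 vehicle wells for 24 of 26 amino acid genes (92.3%), for 3 of 13 unfolded protein genes (23.1%) and for 1463 of all 12393 genes tested (11.8%). Its log2 value lay above the median of the other 5 vehicle wells by a median of 1.88 over the amino acid genes, and differed by -0.12 over the unfolded protein genes and by -0.26 over all genes. The difference was largest for CHAC1 at 3.72 and lowest among the amino acid genes for PSPH at -0.73. The member counts of each 40 h comparison are given with and without this well.

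TNF given alone was compared with vehicle. TNF wells had higher signals of most amino acid genes, including all 4 transporters and all 4 other targets, while most chaperone genes did not pass the test. Of 26 amino acid genes 19 were higher and none was lower in TNF than in vehicle wells, against 6.69% of all genes higher and 4.62% lower. Their median log2 fold change was 1.17, against -0.01 over all genes. Of 13 unfolded protein genes 3 were higher and none was lower, and their median log2 fold change was 0.23. Calls here are at an adjusted p under 0.05 in a limma fit over all genes with array set as a covariate. With quantile-normalised values the same comparison called 1194 genes higher and 1287 lower, where the deposited values gave 829 and 572, and among the members it called 19 amino acid genes higher and, in the unfolded protein arm, 4 higher and 1 lower.

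Among the transcription factors and feedback regulators 5 of 8 were higher. ATF4, the factor the arm is named for, had 10191, 12374, 11214, 7669.9 and 9749 signal units in TNF wells, against 3272 to 11489 (median 4592) units in vehicle wells. Vehicle well 1, at 11489 units, lay inside the TNF range, and the other 5 vehicle wells lay below every TNF well. The log2 fold change of ATF4 was 1.06 ± 0.25 (SE, adjusted p = 0.00312). TRIB3, a pseudokinase that feeds back on ATF4, had 1734 and 2284 units in the TNF wells of set 2 and 4170.5, 4538 and 4551 in those of set 1, against 742 to 4375 (median 927) in vehicle wells. The set 1 TNF wells had the highest values, together with vehicle well 1, and the log2 fold change was 1.45 ± 0.28 (adjusted p = 0.000329). PPP1R15A, the regulatory subunit of the phosphatase that restores eIF2alpha, had 426, 590.2, 406, 388 and 392 units in TNF wells and 167 to 331 (median 189) in vehicle wells. The 2 groups of PPP1R15A did not overlap, vehicle well 1 included, and its log2 fold change was 1.13 ± 0.19 (adjusted p = 4.55e-05). ATF3, a stress-induced transcription factor, and ATF5, a relative of ATF4, were higher by 1.20 ± 0.30 and 0.89 ± 0.29 on the log2 scale. NUPR1, a stress-induced chromatin protein, DDIT3, the pro-apoptotic factor CHOP, and CEBPG, a C/EBP partner of ATF4, had log2 fold changes of 0.78, 0.60 and 0.13 and did not pass.

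Of the 10 enzymes 6 were higher. ASNS, which makes asparagine, had 1758, 2135, 2108, 1532 and 1083 units in TNF wells and 279 to 2197 (median 309) in vehicle wells. All 5 TNF wells lay above the vehicle wells other than well 1, which was the highest of both groups, and the log2 fold change was 1.96 ± 0.40 (adjusted p = 0.000709). PSAT1, of serine synthesis, was higher by 1.60 ± 0.34, MTHFD2, a mitochondrial folate enzyme, by 1.33 ± 0.25, and PCK2, the mitochondrial PEP carboxykinase, by 1.09 ± 0.22. CBS, of transsulfuration, was higher by 0.82 and SHMT2, which moves 1-carbon units from serine to folate, by 0.63. CBS has a near-identical gene copy that its probe set may share, so its value is uncertain. CTH, which follows CBS in transsulfuration, had a log2 fold change of 1.50 at low signals. ALDH1L2, a mitochondrial folate dehydrogenase, PHGDH, which starts serine synthesis, and PSPH, which completes it, had 1.09, 1.00 and 0.36, and none of the 4 passed.

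All 4 transporters were higher. SLC7A5, the light chain that carries large neutral amino acids, had 1468, 1353, 1267, 1150.5 and 839 units in TNF wells and 178 to 1308 (median 304) in vehicle wells. Its log2 fold change was 1.78 ± 0.36 (adjusted p = 0.00058), with vehicle well 1 at 1308 units inside the TNF range and the other vehicle wells below it. SLC7A11, the cystine importer, was higher by 2.05 ± 0.39, and its probe set of higher mean signal units gave 2.86 ± 0.46. SLC3A2, the heavy chain shared by both, was higher by 1.20 ± 0.26, and SLC7A1, a cationic amino acid carrier, by 0.84 ± 0.19.

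CHAC1, which degrades glutathione, had the largest change of the 39 genes. It had 328 and 441 units in the TNF wells of set 2 and 754, 984 and 939.7 in those of set 1, against 29.8 to 688 (median 75.8) in vehicle wells. Apart from vehicle well 1 at 688 units, every vehicle well was below every TNF well, and the log2 fold change was 2.84 ± 0.47 (adjusted p = 3.96e-05). VEGFA, the angiogenic growth factor, had 2714, 2796, 2996, 1334 and 1582 units in TNF wells and 166 to 1721 (median 307) in vehicle wells, and rose by 2.58 ± 0.33 (adjusted p = 3.16e-07). VEGFA overlapped between the groups in these units through vehicle well 1, but not on the deposited scale, which is centred on each array's median. SESN2, an inhibitor of mTORC1 signalling, was higher by 1.39 ± 0.27. STC2, a secreted glycoprotein, had 74.6, 84.4, 127, 49.8 and 50.3 units in TNF wells, against 4.5 to 82.4 (median 9.5) units in vehicle wells. In 5 of the 6 vehicle wells STC2 lay below the level that genes had to reach on average to be tested, so it entered the test through its higher wells and the size of its log2 fold change, 2.67 ± 0.76, is uncertain. Without STC2 18 of the other 25 amino acid genes were higher. On the deposited scale the groups did not overlap for 4 amino acid genes (ATF3, PPP1R15A, SLC7A1 and VEGFA) and for no unfolded protein gene, against 3% of all genes with every TNF well above every vehicle well and 1.61% with every TNF well below.

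In the unfolded protein arm the 3 genes higher with TNF were HYOU1, HERPUD1 and HSPA5. HYOU1, an ER chaperone of the HSP70 family, was higher by 0.77 ± 0.16 (adjusted p = 0.000861). HERPUD1, which serves the degradation of ER proteins, was higher by 0.70 ± 0.23 (adjusted p = 0.0461), and HSPA5, the main ER chaperone BiP, by 0.47 ± 0.15 (adjusted p = 0.0356). The sensors EIF2AK3 (PERK) and ERN1 (IRE1) and the factor XBP1 did not pass, with log2 fold changes of 0.23, 0.22 and 0.34. Nor did the other ER chaperones and folding enzymes PDIA4 (0.44), SDF2L1 (0.44), HSP90B1 (0.12), DNAJB9 (0.09) and DNAJC3 (0.02). The degradation genes EDEM1 and SEL1L had log2 fold changes of -0.06 and -0.46, without passing. HYOU1 had 1178, 1207, 1073, 1717 and 1535 units in TNF wells, against 736 to 913 (median 833) in vehicle wells, so in these units every TNF well was above every vehicle well. HERPUD1 had 1960.5, 2024, 2078, 1456 and 1479.6 units in TNF wells, against 862 to 2291 (median 1019.7) in vehicle wells, of which well 1 was again the highest.

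When each of the 11 wells was left out in turn, the calls of 6 genes were lost in some fits. STC2 lost its call without TNF well 3 (adjusted p = 0.0576) and SHMT2 without TNF well 1 or 3 or vehicle well 3 or 4 (highest adjusted p = 0.0687). HSPA5 kept its call in 5 of 11 fits, losing it without TNF well 1, 3 or 5 or vehicle well 3, 4 or 5. HERPUD1 kept it in 4 of 11, losing it without TNF well 1, 2 or 3 or vehicle well 3, 4, 5 or 6. ATF5 kept it in 3 of 11, with vehicle well 1, vehicle well 5 or TNF well 2 left out, and CBS in 2 of 11, with vehicle well 1 or TNF well 5 left out. Their highest adjusted p-values were 0.103, 0.12, 0.115 and 0.112.

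Without vehicle well 1 TNF had 23 of 26 amino acid genes higher and none lower, against 6.67% of all genes higher, and again 3 of 13 unfolded protein genes higher. These 23 include STC2 (3.30 ± 0.76), whose other 5 vehicle wells all lay below the level for testing. CHAC1 then had a log2 fold change of 3.46 ± 0.37 and ASNS of 2.50 ± 0.31, and PHGDH, at 1.54 ± 0.25, passed (adjusted p = 2.08e-05). In set 2 alone 21 amino acid genes were higher, against 4.65% of all genes, and in set 1 without that well 20 were higher, against 3.36%. With that well set 1 alone had 11 higher and none lower, against 3.2% of all genes higher and 2.01% lower. The difference between the 2 sets in the TNF effect passed for 0 of the 39 genes in limma and for 1 of all genes (0.00807%), with and without that well. At an unadjusted p under 0.05 it held for 2 of the 39 genes with that well, against 387 of all 12393 genes, and for 1 without it, against 431.

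**Figure D1:**
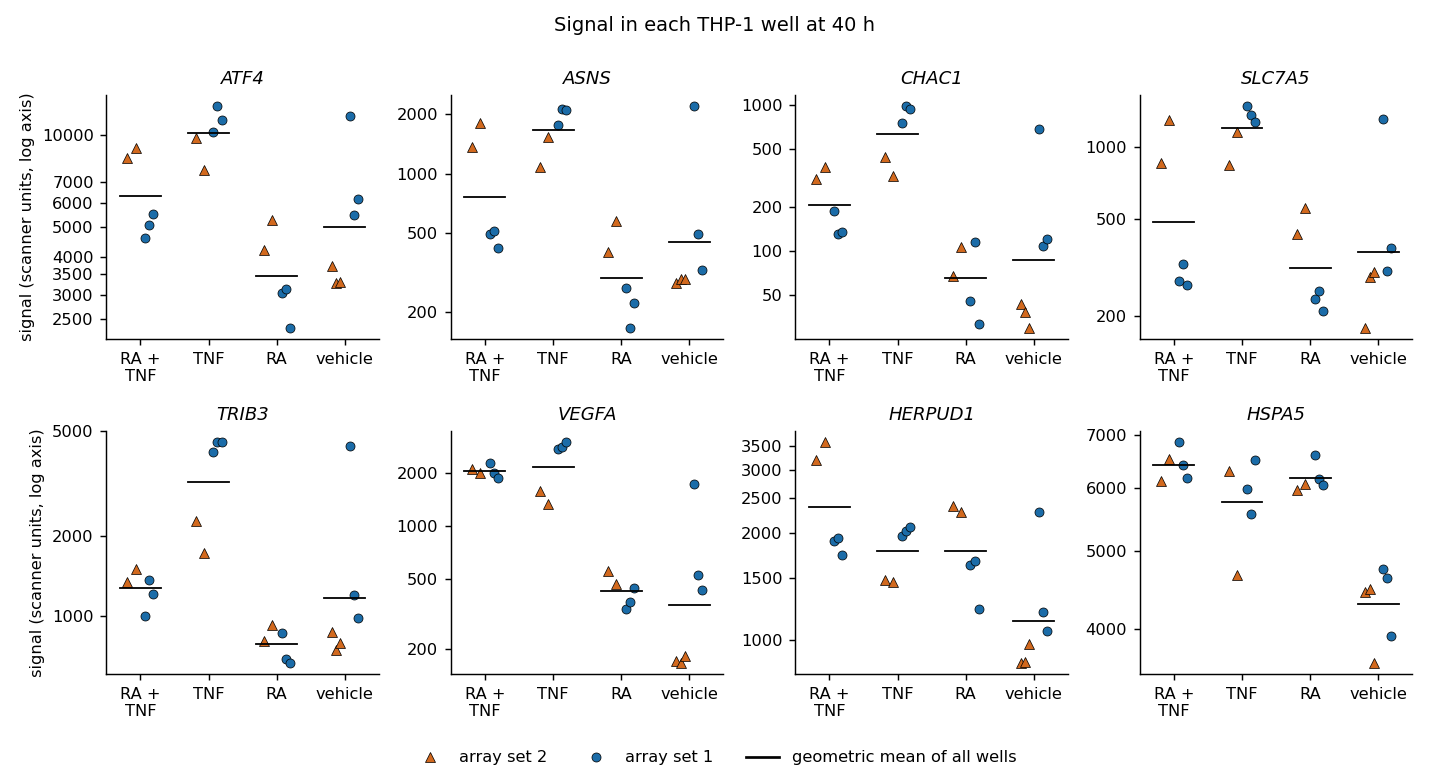
Signal units, on a log axis, of 8 genes in every well at 40 h, for RA plus TNF, TNF, RA and vehicle, with array set 2 as triangles, array set 1 as circles and a line at the geometric mean of each group. The single high vehicle circle in ATF4, ASNS, CHAC1, SLC7A5, TRIB3 and VEGFA is well 1, and the RA plus TNF triangles of ATF4, ASNS, CHAC1, SLC7A5 and HERPUD1 lie above the circles.

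RA plus TNF was then set against TNF alone, which shows what RA added to the cytokine. With both agents, 8 amino acid genes were lower and none was higher than with TNF alone, while 0 unfolded protein genes passed in either direction. At an unadjusted p under 0.05, 13 amino acid genes were lower and 2 unfolded protein genes were higher, against 892 of all 12393 genes lower and 1370 higher. After adjustment, of all genes 4.6% were higher and 2.69% lower. The median log2 fold change was -0.67 over the 26 amino acid genes, 0.19 over the 13 unfolded protein genes and 0.04 over all genes. The lower genes were 4 enzymes, 2 transporters, the feedback regulator TRIB3 and SESN2. Quantile-normalised values called 795 of all genes higher and 798 lower, where the deposited values gave 570 and 333, and called 9 amino acid genes lower and 1 unfolded protein gene higher.

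TRIB3 had 997, 1373, 1210.2, 1506 and 1341 units in RA plus TNF wells and 4170.5, 4538, 4551, 1734 and 2284 in TNF wells. The groups did not overlap, and the log2 fold change was -1.27 ± 0.29 (adjusted p = 0.00353). SESN2 had 230.2, 287, 160.2, 233 and 224 units in RA plus TNF wells and 811, 876, 746, 314 and 257 in TNF wells. In these units the highest RA plus TNF well exceeded the lowest TNF well, but on the deposited scale the groups did not overlap, and the log2 fold change was -1.19 ± 0.28 (adjusted p = 0.00457). TRIB3 and SESN2 kept their call when any 1 of the 10 wells was left out. The other 6 genes lost theirs without at least 1 well, and their values were -1.32 for PSAT1, -1.23 for SLC7A5, -1.21 for PHGDH, -0.91 for CBS, -0.88 for PCK2 and -0.73 for SLC7A1. The count of 8 fell to 5 without TNF well 1, 2 or 3 or RA plus TNF well 1, to 3 without RA plus TNF well 2 and to 2 without RA plus TNF well 3. It was 12 without vehicle well 1, which is in the same fit, with ALDH1L2, ASNS, CHAC1 and SHMT2 added, against 2.93% of all genes lower.

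Of these 8 genes 7 were among the 22 that TNF raised, and PHGDH was the exception. The comparison shares the TNF wells with TNF against vehicle, so the 2 counts are not independent. VEGFA, ATF3, PPP1R15A and ATF5, which TNF also raised, had log2 fold changes of -0.02 ± 0.34, 0.27 ± 0.32, 0.08 ± 0.20 and 0.40 ± 0.30 in RA plus TNF against TNF wells. The value of VEGFA averages unlike array sets. In set 1 it had 1878 to 2263 units in RA plus TNF wells and 2714 to 2996 in TNF wells. In set 2 it had 2004 and 2104 units in RA plus TNF wells and 1334 and 1582.5 in TNF wells. ATF3, PPP1R15A and ATF5 overlapped in set 1, and in set 2 their RA plus TNF wells lay above their TNF wells. For 5 amino acid genes (TRIB3, SESN2, PCK2, SHMT2 and CEBPG) every RA plus TNF well lay below every TNF well on the deposited scale, against 1.83% of all genes, and for none did every one lie above, against 3.66%. The interaction, that is the RA effect with TNF minus the RA effect without it, passed for 0 of the 39 genes in limma, against 0.428% of all genes, and 3 of 39 members had an unadjusted p under 0.05, against 910 of 12393 genes. Those 3 were ATF5 (1.25 ± 0.41, adjusted p = 0.282), SLC7A5 (-1.07 ± 0.52, adjusted p = 0.674) and XBP1 (-0.59 ± 0.28, adjusted p = 0.639).

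The unfolded protein genes lay on both sides of 0 in RA plus TNF against TNF wells, from -0.30 for XBP1 to 0.56 for EIF2AK3. In set 2 XBP1 had 1299 and 1629 units in RA plus TNF wells and 1017 and 1249 in TNF wells, with the RA plus TNF wells higher. In set 1 it had 1237, 911 and 982 units in RA plus TNF wells and 1832, 1861 and 1915 in TNF wells, where all RA plus TNF wells were below all TNF wells. Its log2 fold change over both sets was -0.30 ± 0.20 (adjusted p = 0.467).

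The 2 array sets gave different counts for RA plus TNF against TNF. In set 2 alone 0 of 26 amino acid genes passed in either direction in limma (3 higher and 1 lower at an unadjusted p under 0.05, against 945 and 1060 of all 12393 genes). After adjustment 2.92% of all genes were higher and 2.03% lower. In set 1 alone 13 were lower with RA plus TNF and none was higher, against 3.38% of all genes higher and 1.61% lower. The median log2 fold change of the amino acid genes was 0.07 in set 2 and -1.14 in set 1. The log2 ratio of the 3' to the 5' ACTB probe set in set 1 was 0.906, 1.029 and 1.032 in RA plus TNF wells, all below the 1.329, 1.435 and 1.425 of TNF wells. In set 2 it was 0.407 and 0.581 in RA plus TNF wells, against 0.272 and 0.793 in TNF wells. Its part in these counts was not tested. In set 2 ASNS had 1802 and 1362 units in RA plus TNF wells and 1532 and 1083 in TNF wells, a log2 fold change of 0.26 ± 0.23 (adjusted p = 0.642). In set 1 it had 494, 514 and 421 units in RA plus TNF wells and 1758, 2135 and 2108 in TNF wells, a log2 fold change of -1.95 ± 0.40 (adjusted p = 0.00184). The groups overlapped in set 2 and were far apart in set 1. SLC7A5 had 1285 and 859 units in the RA plus TNF wells of set 2 and 278, 328 and 269 in those of set 1, and its log2 fold change against TNF was 0.07 in set 2 and -2.11 in set 1. TRIB3 had a log2 fold change of -0.51 ± 0.21 in set 2 (adjusted p = 0.195) and was lower in set 1, at -1.78 ± 0.33.

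The test of the difference between sets in this effect passed for 0 of the 39 genes over all arrays, and for 0 of all genes. At an unadjusted p under 0.05 it held for 19 of the 39 genes, against 1046 of all genes. Without vehicle well 1 the adjusted test passed for 5 amino acid genes, against 0.105% of all genes. They were ALDH1L2 (3.25 ± 0.51, set 2 minus set 1), ASNS (2.21 ± 0.39), SLC7A5 (2.18 ± 0.36), PSAT1 (1.97 ± 0.34) and PHGDH (1.90 ± 0.30). ALDH1L2 had 317 and 409.6 units in the RA plus TNF wells of set 2, 60.4, 47.1 and 42.2 in those of set 1 and 372, 382, 356, 243 and 273 in the 5 TNF wells. The 2 RA plus TNF wells of set 2 were in the range of the TNF wells or above it, and the 3 of set 1 were below it. Of the 26 amino acid genes 16 had both RA plus TNF wells of set 2 above all 3 of set 1, against 22.8% of all genes, and 23 had both TNF wells of set 2 below all 3 of set 1, against 17.2%. HERPUD1 was the member higher with RA plus TNF than with TNF in set 2, at 1.19 ± 0.21 (adjusted p = 0.000378), and in set 1 its value was -0.00 ± 0.25.

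**Figure D2:**
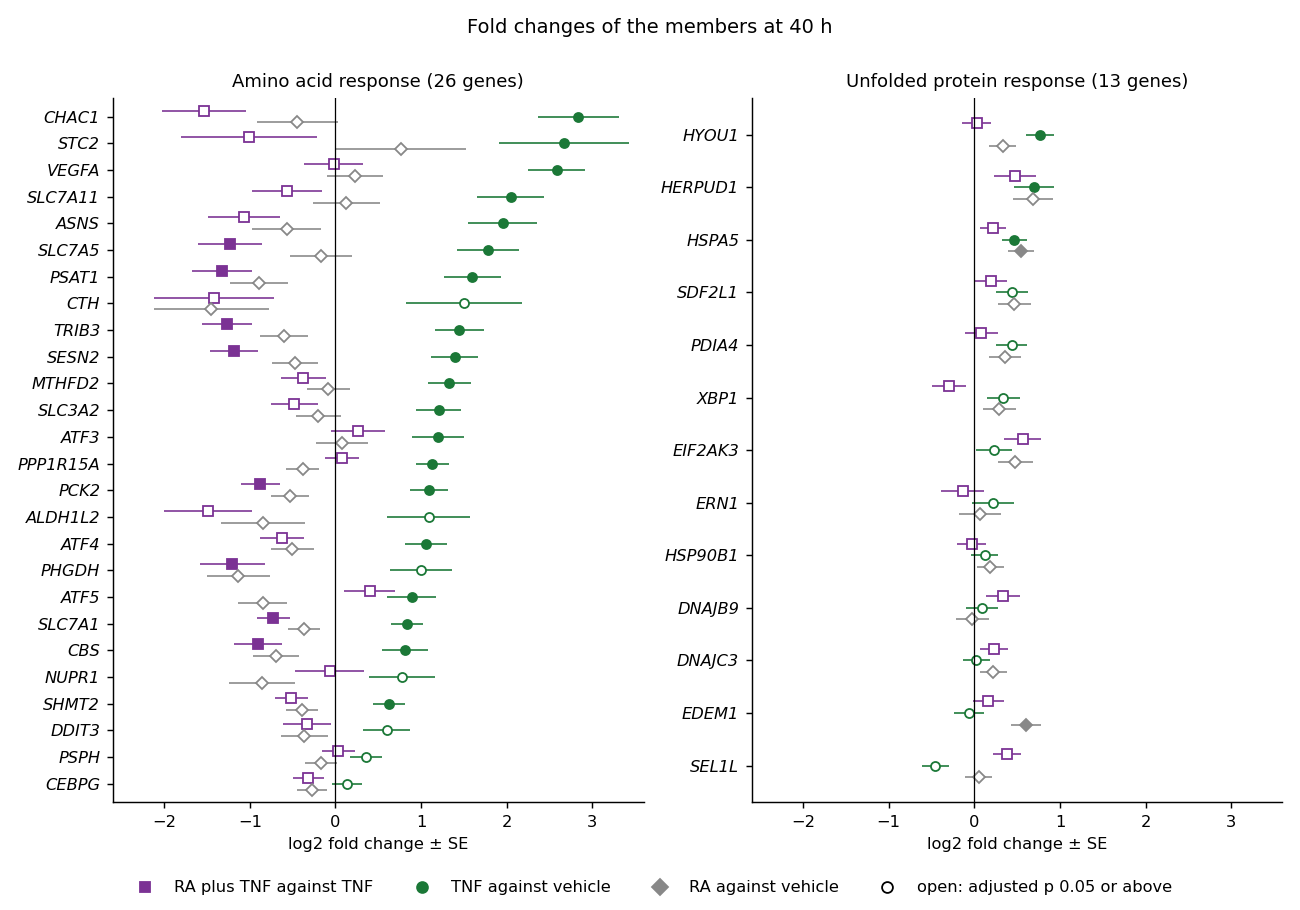
Log2 fold change with its standard error for the 26 amino acid genes and the 13 unfolded protein genes at 40 h, for RA plus TNF against TNF (squares), TNF against vehicle (circles) and RA against vehicle (diamonds), with open symbols at an adjusted p of 0.05 or above. The 19 filled circles of the amino acid arm all lie right of 0 and its 8 filled squares all lie left of 0, while the unfolded protein arm has 3 filled circles, 2 filled diamonds and no filled square.

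RA plus TNF was also compared with vehicle and with RA alone. RA plus TNF wells had 8 amino acid and 6 unfolded protein genes higher than vehicle wells and none lower, against 11.7% of all genes higher and 7.42% lower. The median log2 fold change was 0.41 over the amino acid genes, 0.43 over the unfolded protein genes and 0.05 over all genes. With quantile-normalised values 1552 of all genes were higher and 1854 lower, where the deposited values gave 1445 and 919, and 6 genes of each arm were higher. The 8 amino acid genes were VEGFA (2.56 ± 0.33), SLC7A11 (1.48 ± 0.39), ATF3 (1.47 ± 0.30), CHAC1 (1.30 ± 0.47), ATF5 (1.29 ± 0.29), PPP1R15A (1.21 ± 0.19), MTHFD2 (0.96 ± 0.25) and SLC3A2 (0.73 ± 0.26). All 8 were also among the 19 higher with TNF alone, in a comparison that shares the vehicle wells. VEGFA had 2263, 1991, 1878, 2004 and 2104 units in RA plus TNF wells, a narrow range above all vehicle wells. CHAC1 kept its call in 3 of 11 fits that left out 1 well, those without vehicle well 1 or RA plus TNF well 2 or 3, with a highest adjusted p of 0.191. SLC3A2 kept it in 4 of 11, those without vehicle well 1 or 2 or RA plus TNF well 2 or 3, with a highest adjusted p of 0.16.

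The 6 unfolded protein genes higher with RA plus TNF than with vehicle were HERPUD1 (1.17 ± 0.23), HYOU1 (0.80 ± 0.16), EIF2AK3 (0.79 ± 0.21), HSPA5 (0.69 ± 0.15), SDF2L1 (0.63 ± 0.19) and PDIA4 (0.52 ± 0.18). HSPA5 had 6865, 6423, 6191, 6539.7 and 6127 units in RA plus TNF wells, against 3618 to 4754 (median 4467) in vehicle wells. Its groups did not overlap on either scale (adjusted p = 0.000746). HSPA5 was the 1 unfolded protein gene of which this held, beside ATF3, PPP1R15A and VEGFA of the amino acid arm, against 5.8% of all genes with every RA plus TNF well above every vehicle well and 2.91% with every one below. EIF2AK3, the kinase PERK, had 199.5, 197, 256, 286 and 297 units in RA plus TNF wells and 133 to 201 (median 150.3) in vehicle wells, with the highest vehicle well above the lowest of the others. PDIA4 kept its call in 5 of 11 fits that left out 1 well, losing it without vehicle well 1, 3 or 4 or RA plus TNF well 1, 2 or 3, and SDF2L1 lost its call without vehicle well 1 or RA plus TNF well 1 (highest adjusted p = 0.161 and 0.075). EIF2AK3 has 1 other probe set, which is dim, with a mean of 12.99 units, and the mean of both probe sets had a log2 fold change of -0.06.

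Against RA alone, RA plus TNF wells had 13 amino acid genes higher and none lower, and 0 unfolded protein genes passed (2 higher and 1 lower at an unadjusted p under 0.05, where 1716 and 1223 of all 12393 genes were), against 7.63% of all genes higher and 4.55% lower. The median log2 fold change was 0.93 over the amino acid genes, 0.14 over the unfolded protein genes and 0.03 over all genes. With quantile-normalised values the counts over all genes were 1150 higher and 1255 lower, where the deposited values gave 946 and 564. Among the members 14 amino acid genes were then higher and, in the unfolded protein arm, 1 was higher and 1 lower. VEGFA was higher by 2.34 ± 0.34, ATF5 by 2.14 ± 0.30, CHAC1 by 1.75 ± 0.49, PPP1R15A by 1.59 ± 0.20 and ATF4 by 0.94 ± 0.26. ATF5 had 570.1, 619.9, 727, 839 and 708 units in RA plus TNF wells and 136, 159, 190.2, 178 and 167 in RA wells, without overlap (adjusted p = 1.35e-06). The groups did not overlap for 6 amino acid genes, which were ATF3, ATF5, NUPR1, PPP1R15A, SLC7A11 and VEGFA, all higher with RA plus TNF, against 3.58% of all genes higher and 2.16% lower. ATF3 has 2 dimmer probe sets besides the one used, and the mean of the 3 had a log2 fold change of -0.22. The count was 17 without vehicle well 1, which is in the same fit, against 7.96% of all genes higher and 4.68% lower. The count of 13 fell to 6 without RA well 3, to 7 without RA plus TNF well 4 and to 8 without RA plus TNF well 5. In set 2 alone 15 amino acid genes were higher, against 2.38% of all genes, and in set 1 alone 10, against 7.85%. The difference between sets passed in limma for 0 of the 39 genes, of which 2 had an unadjusted p under 0.05, against 1401 of all 12393 genes.

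Without vehicle well 1, 13 amino acid and 5 unfolded protein genes were higher with RA plus TNF than with vehicle, against 11% of all genes. The 13 include STC2 (2.29 ± 0.76), whose other 5 vehicle wells all lay below the level for testing. The 2 array sets differed in the effect of RA plus TNF against vehicle. In set 2 alone 22 amino acid genes were higher and none lower, with a median log2 fold change of 1.43, against 8.15% of all genes higher. In set 1 without vehicle well 1, 5 were higher and 1 lower, with a median of 0.21, against 6.19% higher and 2.24% lower. With that well, set 1 had 3 higher and 2 lower, with a median of -0.34, against 7.38% higher and 3.49% lower, and CHAC1 (-0.34) and SLC3A2 (-0.07) turned negative. The test of the difference between sets passed for 9 members, all of the amino acid arm, and without vehicle well 1 for 8, against 0.186% and 0.161% of all genes. Without that well ALDH1L2 differed by 3.52 ± 0.51, CHAC1 by 2.73 ± 0.51, SLC7A5 by 2.19 ± 0.36 and ATF4 by 1.44 ± 0.27 (set 2 minus set 1). In the unfolded protein arm 5 genes were higher in set 2 and 3 in set 1 without vehicle well 1, and no member of it passed the test of the difference.

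The effect of RA alone was read at 40 h against vehicle. RA wells had 2 unfolded protein genes higher, HSPA5 and EDEM1, and no amino acid gene in either direction, against 2.77% of all genes higher and 1.37% lower. The median log2 fold change was -0.42 over the amino acid genes, 0.33 over the unfolded protein genes and 0.00 over all genes. With quantile-normalised values 547 of all genes were higher and 497 lower, where the deposited values gave 343 and 170, and 3 unfolded protein genes were higher. Of the amino acid genes 4 of 26 had a positive log2 fold change, of the unfolded protein genes 12 of 13. At an unadjusted p under 0.05, 0 amino acid genes were higher and 9 lower, against 905 of all 12393 genes higher and 765 lower. For 0 of the 39 genes did the groups not overlap on the deposited scale, against 1.36% of all genes higher and 0.508% lower. These medians and counts include vehicle well 1, which was high for most amino acid genes. Without it 0 amino acid genes passed in either direction. Their log2 fold changes then ran from -1.14 for CTH to 1.40 for STC2, both at low signals. PHGDH had -0.59 ± 0.25, ATF4 -0.22 ± 0.22, ASNS -0.02 ± 0.31, CHAC1 0.17 ± 0.37 and VEGFA 0.67 ± 0.25.

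HSPA5 had 6608, 6169.8, 6064, 6085 and 5972 units in RA wells and 3618 to 4754 (median 4467) in vehicle wells. In these units every RA well was above every vehicle well, on the deposited scale they overlapped, and the log2 fold change was 0.55 ± 0.15 (adjusted p = 0.0258). EDEM1, which takes misfolded glycoproteins to degradation, had 2192, 1702, 2156, 1918 and 1952 units in RA wells and 1068 to 2061 (median 1226) in vehicle wells, of which well 2 was as high as the RA wells. Its log2 fold change was 0.60 ± 0.18 (adjusted p = 0.0422). The call of HSPA5 was kept in 6 of 11 fits that left out 1 well and that of EDEM1 in 3 of 11, and neither passed without vehicle well 3 or 5 or without RA well 1, 4 or 5. The count of 2 was 0 without vehicle well 3 or 5 or RA well 1 or 4, 1 without vehicle well 6, and 1, a lower amino acid gene, without RA well 5. It was 3 without vehicle well 4, of which 2 were lower amino acid genes. Without vehicle well 1 both passed, and HERPUD1 was added at 0.94 ± 0.21 (adjusted p = 0.00329), against 3.18% of all genes higher.

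The RA effect on the amino acid arm differed between the array sets. In set 2 alone 8 amino acid genes were higher with RA and none lower (median log2 fold change 0.38), against 4.37% of all genes higher. They were VEGFA (1.73), SLC7A11 (1.43), CHAC1 (1.38), SLC7A5 (1.14), ASNS (0.90), MTHFD2 (0.87), SLC3A2 (0.74) and ATF4 (0.62). In set 1 alone 12 were lower and none higher (median -1.21), against 0.96% of all genes lower and 1.05% higher. Without vehicle well 1, set 1 had 3 lower, PHGDH (-1.37), PSAT1 (-1.32) and ATF4 (-1.08), and none higher (median -0.58), against 0.379% of all genes lower. In set 2 ATF4 had 5253 and 4217 units in RA wells and 3272, 3309 and 3730.1 in vehicle wells. In set 1 it had 3051, 3145 and 2339.5 units in RA wells and 11489, 5454 and 6178 in vehicle wells. The RA wells of ATF4 were above all vehicle wells in set 2 and below them in set 1.

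The test of the difference between sets in the RA effect passed for 9 of the 39 members, against 0.242% of all genes. Without vehicle well 1 it passed for 7, all of the amino acid arm, against 0.169% of all genes. They were CHAC1 (2.48 ± 0.51, set 2 minus set 1), VEGFA (2.09 ± 0.34), ASNS (1.85 ± 0.39), SLC7A5 (1.73 ± 0.36), PSAT1 (1.71 ± 0.34), ATF4 (1.70 ± 0.27) and PHGDH (1.51 ± 0.30). In the unfolded protein arm 5 genes were higher in set 2 and none passed in set 1. The 5 were HERPUD1 (1.53 ± 0.19), EDEM1 (0.97 ± 0.19), XBP1 (0.74 ± 0.19), HSPA5 (0.70 ± 0.18) and HYOU1 (0.66 ± 0.19). HERPUD1 was among the 9 genes that differed between sets (1.54 ± 0.35), and without vehicle well 1 it did not pass (1.17 ± 0.31, adjusted p = 0.208). The 3' to 5' ratios given above also differ between the sets, and their part in these values was not tested.

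**Figure D3:**
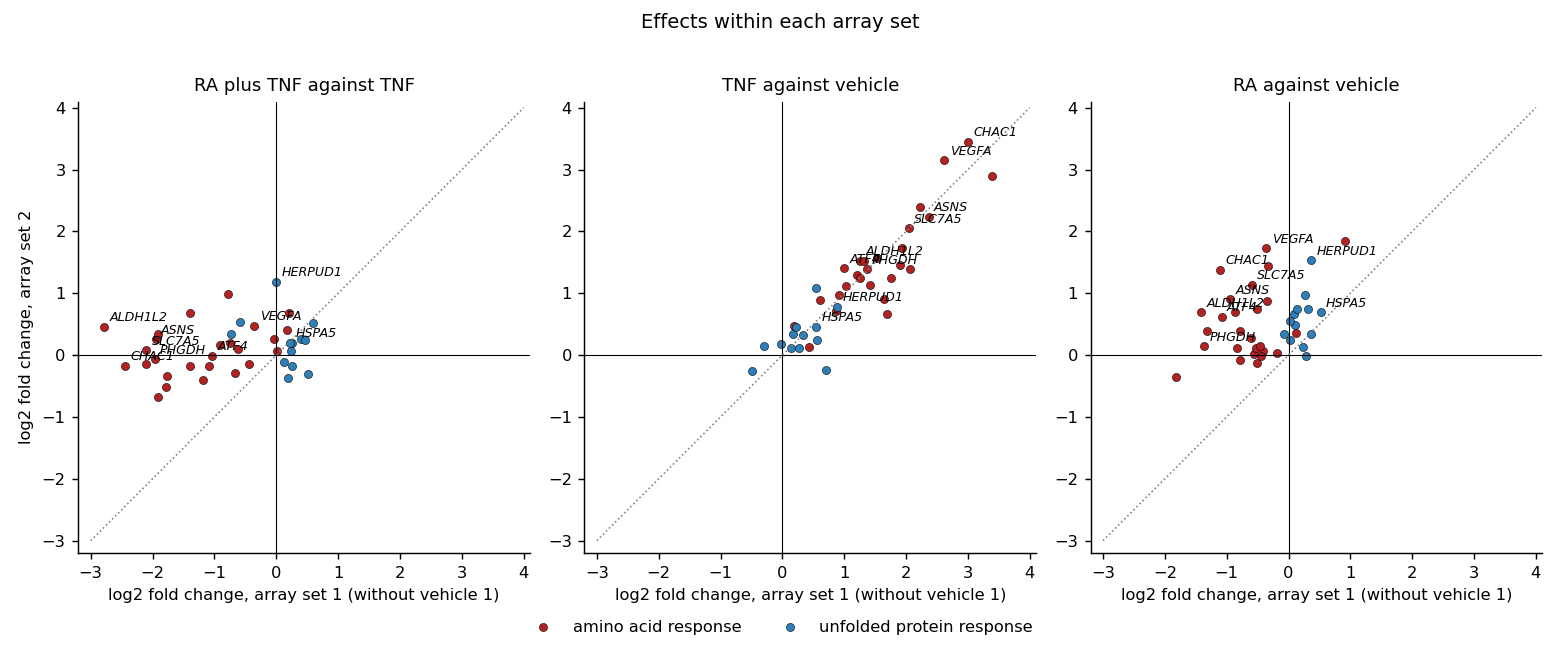
Log2 fold change of each of the 39 genes in array set 2 (vertical axis) against array set 1 without vehicle well 1 (horizontal axis), for RA plus TNF against TNF, TNF against vehicle and RA against vehicle, with amino acid genes in red, unfolded protein genes in blue and a dotted line at equal effects. For TNF most points of both arms lie right of and above 0, and for RA and for RA plus TNF against TNF most amino acid genes, such as ASNS at 0.26 in set 2 and -1.95 in set 1 against TNF, lie near or above 0 in set 2 and left of 0 in set 1.

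The time course follows RA alone from 2 to 40 h. All 17 wells of the time course are in array set 2. In the deposited values the median log2 fold change of all genes after 2, 6, 16 and 40 h was 0.31, 0.38, -0.17 and 0.15, so changes are also given relative to it. Of 37 members tested (24 amino acid and 13 unfolded protein genes, without CTH and STC2, whose signals were low), the number higher at the 4 times was 1, 4, 2 and 5, and none was lower. Of all genes 0.84%, 8.21%, 2.36% and 4.45% were higher at these times and 0.024%, 0.176%, 4.66% and 0.672% lower. The median over the amino acid genes was 0.41, 0.44, -0.26 and 0.25, and over the unfolded protein genes 0.44, 0.49, 0.03 and 0.47. Relative to the median of all genes these were 0.11, 0.06, -0.10 and 0.10 for the amino acid genes and 0.13, 0.11, 0.20 and 0.32 for the unfolded protein genes. Quantile-normalised values called 82, 303, 742 and 676 of all genes higher and 23, 173, 841 and 680 lower, where the deposited values gave 105, 1026, 295 and 557 higher and 3, 22, 583 and 84 lower.

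Summed monocytic marker signals were 6902 to 9794 units in the vehicle wells of 16 h, 7341 to 8878 after 2 h of RA, 8021 to 9951 after 6 h and 13432 to 16033 after 16 h. The 3' to 5' ACTB log2 ratio was 0.43 ± 0.23 (SD) in the vehicle wells of 16 h (n = 5), 0.22 ± 0.11 after 2 h (n = 2), 0.21 ± 0.12 after 6 h (n = 2) and 0.77 ± 0.33 after 16 h of RA (n = 3). At 40 h of RA it was 0.475 and 0.578, against 0.299 to 0.996 in the 3 vehicle wells of 40 h in set 2. The part of either in the time course was not tested.

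On the deposited scale every RA well was above every vehicle well for 9, 9, 2 and 11 members at these 4 times, and for none were all below. Of all genes 18.8%, 17.8%, 3.06% and 10% were above in this way and 0.472%, 0.52%, 5.05% and 2.26% below. The 2 members at 16 h were EDEM1 and HERPUD1, and both also stood above at the other 3 times. The 11 members at 40 h were 7 unfolded protein genes (DNAJC3, EDEM1, EIF2AK3, HERPUD1, HSPA5, SEL1L and XBP1) and 4 amino acid genes (ATF4, MTHFD2, SLC7A11 and VEGFA).

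HERPUD1 was higher at all 4 times. It had 1456 and 1461 units at 2 h, 1985 and 1762 at 6 h, 1646, 1670.4 and 1722 at 16 h and 2288 and 2379 at 40 h of RA, against 639.6 to 1158 units in the 8 vehicle wells. All RA wells at each time were above all vehicle wells. The log2 fold changes were 0.97 ± 0.23, 1.40 ± 0.23, 0.70 ± 0.20 and 1.47 ± 0.23 (adjusted p = 0.033, 0.000127, 0.0301 and 4.92e-05). Relative to the median of all genes they were 0.66, 1.02, 0.86 and 1.32, and they passed at all 4 times with quantile-normalised values and with uncentred signals too. HERPUD1 has a dim second probe set, at a mean of 11.7 units against 1649.7 for the one used, and the mean of both gave log2 fold changes of -0.03 at 2 h and -0.09 at 16 h. At 2 h the call was kept in 5 of 10 fits that left out 1 well, and at 16 h in 7 of 11.

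EDEM1 had 1171 and 1204 units at 2 h, 1675 and 1489 at 6 h, 2159, 1868 and 1959 at 16 h and 1918 and 1952 at 40 h, against 877 to 1598 in vehicle wells. In these units the 16 h and 40 h wells were above all vehicle wells, and 1 vehicle well at 1598 units lay within the 6 h range, while on the deposited scale none of the times overlapped with vehicle. The log2 fold changes were 0.93 ± 0.19 at 6 h, 0.71 ± 0.16 at 16 h and 0.97 ± 0.19 at 40 h, all past the threshold, and 0.55, 0.88 and 0.82 relative to the median of all genes. With quantile-normalised values EDEM1 passed at 16 h (0.85) and 40 h (0.79) and did not at 6 h (0.46, adjusted p = 0.124). XBP1, the factor whose mRNA IRE1 splices, had 0.79 ± 0.18 at 6 h and 0.77 ± 0.18 at 40 h and passed at both (0.41 and 0.62 relative to that median). With quantile-normalised values XBP1 passed at 16 h (0.53) and 40 h (0.60), and had 0.32 at 6 h (adjusted p = 0.217). HSPA5 had 5341, 4548 and 4715 units at 16 h and 6085 and 5972 at 40 h, against 3558 to 4744 in vehicle wells, with the 40 h wells above all of them. Its log2 fold change at 40 h was 0.67 ± 0.20 (adjusted p = 0.0519), 0.52 relative to that median, and 0.42 with quantile-normalised values (adjusted p = 0.014).

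In the amino acid arm DDIT3 was higher at 6 h by 0.95 ± 0.24 (adjusted p = 0.0141), or 0.57 relative to the median of all genes. It had 236 and 202 units at 6 h, against 117 to 256 in vehicle wells, so the groups overlapped in these units and not on the deposited scale. With quantile-normalised values DDIT3 had 0.55 and did not pass (adjusted p = 0.293). MTHFD2 and VEGFA were higher at 40 h, by 0.79 ± 0.22 and 1.56 ± 0.31 (0.64 and 1.41 relative to that median). Both passed with quantile-normalised values, at 0.54 and 1.41. These values rest on 2 RA wells of set 2, and in the 40 h experiment over both sets neither gene passed with RA. In set 1 RA wells had 1951 to 2147 units of MTHFD2 and 337 to 446 of VEGFA. The vehicle wells of set 1 had 2178 to 6396 and 432 to 1721 units. VEGFA had 320.0 and 313 units at 2 h, 217 and 295 at 6 h, 269, 375 and 268 at 16 h and 469 and 554 at 40 h, against 108 to 294 in vehicle wells. Its 40 h wells were the highest of the course.

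ATF4 had log2 fold changes of 0.32, 0.47, -0.00 and 0.43 at 2, 6, 16 and 40 h, none past the threshold, and 0.01, 0.09, 0.16 and 0.28 relative to the median of all genes. ASNS had 0.81, 0.68, -0.50 and 0.56, none past the threshold either, and 0.50, 0.30, -0.33 and 0.41 relative to that median. TRIB3 had -0.02 at 6 h in the deposited values (adjusted p = 0.942), -0.40 relative to that median, and was lower at -0.50 with quantile-normalised values (adjusted p = 0.0212). ALDH1L2 had -0.84 ± 0.28 at 16 h in the deposited values (adjusted p = 0.0589) and was lower at -0.79 with quantile-normalised values (adjusted p = 0.0334). The 6 h count of 4 was 9 without vehicle well 2 of 16 h, 7 without RA 6 h well 1 and 1 without RA 6 h well 2. The 40 h count of 5 was 8 without vehicle well 2 of 16 h and 1 without RA well 5. At 16 h the count of 2 was 8, of which 6 were lower, without vehicle well 5 of 16 h, 4, of which 3 were lower, without RA 16 h well 3, and 1 without RA 16 h well 1 or 2. At 2 h the count of 1 was 0 without either 2 h well, vehicle well 1 of 16 h or vehicle well 4 or 6 of 40 h, and 2 without vehicle well 2 of 16 h.

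**Figure D4:**
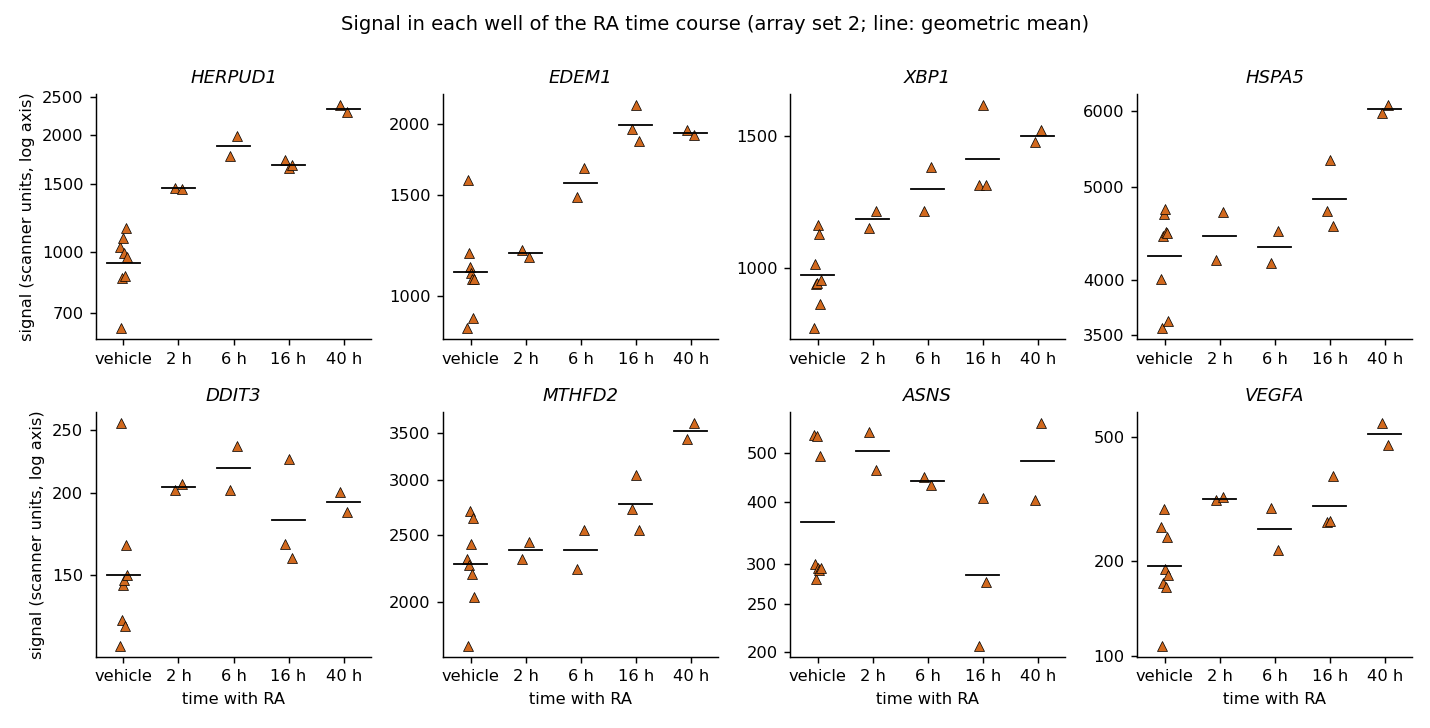
Signal units, on a log axis, of 8 genes in every well of the RA time course, from the 8 vehicle wells to 2, 6, 16 and 40 h of RA, all in array set 2, with a line at the geometric mean. HERPUD1 is above all vehicle wells at each time, EDEM1 is highest at 16 and 40 h, and ASNS and DDIT3 overlap with the vehicle wells.

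Other genes of the pathways were taken from 4 further lists. Of 17 tRNA synthetases tested, which load amino acids onto tRNA and of which several are known ATF4 targets, 14 were higher with TNF than with vehicle and none was lower, against 6.69% of all genes higher, with a median log2 fold change of 0.69. WARS1 was higher by 1.55 ± 0.27, GARS1 by 1.33 ± 0.27 and VARS1 by 0.69 ± 0.15. With RA plus TNF 4 were higher than with vehicle, against 11.7% of all genes. Against TNF alone 2 were lower, GARS1 (-0.96 ± 0.28) and IARS1 (-0.71 ± 0.21), against 2.69% of all genes. These counts moved with the array set and with vehicle well 1. With TNF 13 synthetases were higher in set 2 alone and 3 in set 1 alone, against 4.65% and 3.2% of all genes. With RA plus TNF 11 were higher than with vehicle in set 2 and 3 in set 1, against 8.15% and 7.38%. Against TNF, RA plus TNF had 1 higher and 0 lower in set 2, where 2.92% of all genes were higher and 2.03% lower. In set 1 it had 0 higher and 5 lower, where 3.38% of all genes were higher and 1.61% lower. The difference between sets was not tested for these lists. With vehicle well 1 left out, the count stayed at 14 for TNF, where 6.67% of all genes were higher. For RA plus TNF against vehicle it was 12, where 11% of all genes were higher. Against TNF it was 5 lower and 1 higher, where 2.93% of all genes were lower and 4.85% higher. WARS1, which is also known as an interferon-induced gene, was higher with RA alone by 1.23 ± 0.27 at 40 h, and at 6, 16 and 40 h of the time course by 1.68 ± 0.30, 1.50 ± 0.26 and 1.98 ± 0.30.

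Of 17 other ATF4 pathway genes tested, 7 were higher and 1 lower with TNF, against 6.69% of all genes higher and 4.62% lower, with a median log2 fold change of 0.54. Among the 7 were PYCR1, of proline synthesis (0.91 ± 0.17), and EIF2AK2, the eIF2alpha kinase PKR (1.21 ± 0.19). The lower gene was VLDLR, a lipoprotein receptor, at -0.79 ± 0.18 (adjusted p = 0.00155), and it was lower with RA plus TNF as well, at -1.29 ± 0.18 against vehicle and -0.98 ± 0.18 against RA. With RA alone 2 were lower than with vehicle and none was higher, against 1.37% of all genes lower. They were the neutral amino acid transporter SLC38A2 (-0.80 ± 0.19, adjusted p = 0.00863) and EIF2AK2 (-0.63 ± 0.19, adjusted p = 0.0481). With RA 2 of the 17 were higher and 0 lower in set 2 alone, where 4.37% of all genes were higher and 0.621% lower. In set 1 alone 0 were higher and 5 lower, where 1.05% of all genes were higher and 0.96% lower. Over both sets without vehicle well 1, 1 was higher and 1 lower, where 3.18% of all genes were higher and 1.18% lower. Against TNF alone 3 were lower with RA plus TNF, against 2.69% of all genes. They were EIF4EBP1, a repressor of translation initiation (-1.10 ± 0.24), PYCR1 (-0.71 ± 0.18) and SLC38A2 (-0.71 ± 0.20). In this comparison 0 were lower in set 2 alone and 4 in set 1 alone, against 2.03% and 1.61% of all genes. GDF15, a stress-induced cytokine, was higher with RA plus TNF than with vehicle by 3.19 ± 0.60. In the time course, with 2 RA wells at each of these times, it was higher at 6 h by 3.28 ± 0.80 and at 40 h by 2.71 ± 0.80. In the 40 h experiment, which also holds the RA wells of set 1, GDF15 was not called higher with RA.

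Of 29 other ER folding and degradation genes, 1 was higher with TNF, against 6.69% of all genes, and the median log2 fold change was 0.08. The 1 gene was MANF (0.89 ± 0.16), an ER stress-induced secreted factor. Without vehicle well 1, 3 of the 29 were higher with TNF, against 6.67% of all genes. With RA plus TNF 7 of the 29 were higher than with vehicle, against 11.7% of all genes, including MANF (1.09 ± 0.16), SELENOS (1.07 ± 0.17), a selenoprotein of ER degradation, and DNAJC10 (0.84 ± 0.18), an ER reductase. CREB3L2, an ER-anchored transcription factor, was higher with RA by 1.01 ± 0.16 at 40 h and by 1.31 ± 0.21, 0.95 ± 0.18 and 1.37 ± 0.21 at 6, 16 and 40 h of the course, and lower with RA plus TNF than with RA, at -1.06 ± 0.17. Of 11 heat shock genes tested, a list of cytosolic chaperones and their factors that also holds the mitochondrial HSPD1 and HSPE1, 4 were higher with TNF, against 6.69% of all genes, with a median log2 fold change of 0.39. Among them were the cytosolic chaperones HSP90AB1 (0.53 ± 0.15) and DNAJA1 (0.48 ± 0.15) and the mitochondrial HSPE1 (0.83 ± 0.19). The count was 1 without vehicle well 1, against 6.67% of all genes.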

How the data were processed

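The values deposited by the authors are a log2 ratio per probe set of an Affymetrix HG-U133 Plus 2 array, with each array's median at 0, and the submitters' processing notes name GCOS. How the arrays were centred is not stated in the labels. Signal units were recovered from the steps of 0.1 unit in the values (tolerance 0.006), with the lowest value of an array as 1 unit. Of 54675 probe sets 41091 had a single gene symbol in GEO's platform annotation, and 41037 of these matched the reference by gene number. The probe set of highest mean log2 value per gene was used, and genes at or above the median level of all probe sets (0.882 and 0.891 of the array median) were kept, 12393 for the 40 h experiment (21 arrays) and 12503 for the time course (17 arrays). limma 3.58.1 in R 4.3.3 (lmFit, then eBayes with a trend) with files read by data.table, version 1.17.8, fitted all arrays of an experiment, with array set as a covariate at 40 h, and p-values were adjusted over all genes by Benjamini-Hochberg at 0.05. The fit was tested on simulated data. All members were named, and of the 4 further lists the called genes of smallest adjusted p. The members and lists were chosen with earlier results of these data known. Alternatives were quantile normalisation, uncentred signals, no filter, the mean of all probe sets, no array set term, each array set alone, a replicate block, a reference of matched harvest time and leaving out each well. The tests of set differences, and set 1 without vehicle well 1, were added after seeing the data. The number of arrays limits the precision.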

Additional observations from a re-analysis of the deposited data

Results flagged for a closer look

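Single wells stood apart from the rest of their group by Dixon's test on the deposited scale in 14 of 195 gene and group pairs. For independent pairs chance gives about 1 in 20, but these pairs share wells and are not independent. In 8 of the 14 the well was vehicle well 1 of 40 h, which was high for NUPR1 (579.2 units), TRIB3 (4375), ASNS (2197), PSAT1 (5666), PHGDH (3674), CBS (1529), SLC7A5 (1308) and SLC3A2 (700.4). Vehicle well 3 of 40 h was low for HSPA5 (3913 units) and SEL1L (542.3). For HSPA5 this held on the deposited scale only, since in signal units vehicle well 5 was lower, at 3618. RA plus TNF well 3 was low for SESN2 (160.2 units) and RA plus TNF well 1 was high for SDF2L1 (762.7). RA well 5 was high for HSP90B1 (1560 units) and RA well 1 was low for STC2 (3.4). For HSP90B1 this too held on the deposited scale only, since in signal units RA well 2 was higher, at 1630.

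The effect of RA against vehicle at 40 h differed between the array sets in limma, over all arrays, for 9 members. Set 2 minus set 1 was 3.37 on the log2 scale for CHAC1, 2.90 for ALDH1L2, 2.73 for VEGFA, 2.70 for ASNS, 2.41 for SLC7A5, 2.36 for PHGDH, 2.34 for PSAT1, 2.06 for ATF4 and 1.54 for HERPUD1. The effect of RA plus TNF against vehicle differed likewise for 9 members, by 4.31 for ALDH1L2, 3.62 for CHAC1, 2.93 for ASNS, 2.90 for SLC7A11, 2.86 for SLC7A5, 2.77 for PHGDH, 2.40 for PSAT1, 1.88 for SESN2 and 1.79 for ATF4. Both effects share the vehicle wells, vehicle well 1 of set 1 included, and the values without that well are 7 and 8 members.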

How the results depend on the processing

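Members called were 2 for RA against vehicle, 22 for TNF, 14 for RA plus TNF against vehicle, 8 against TNF, 13 against RA and 0 for the interaction, and 1, 4, 2 and 5 in the course at 2, 6, 16 and 40 h. Counts that moved by over 1.5 times follow, and the cause was not tested. RA against vehicle had 0 without the filter, 1 (a lower amino acid gene) with the mean of all probe sets and 0 without the array set term. It had 13 (higher) in set 2 and 12 (lower) in set 1, and TNF had 11 in set 1. RA plus TNF against vehicle had 9 with the mean of probe sets, 8 without the set term and 27 in set 2. It had 7 in set 1, 2 of them lower, and 9 in set 1 without vehicle well 1, 1 of them lower. Against TNF it had 3 with the mean of probe sets, 1 without the set term, 1 (higher) in set 2, 13 in set 1 and 15 in set 1 without vehicle well 1, and against RA 8 with the mean of probe sets and 7 without the set term. The interaction had 1 in set 1 without vehicle well 1. In the course the mean of probe sets gave 0, 2, 1 and 2. Quantile-normalised values gave 2 at 6 h and 4 at 16 h, uncentred signals 2 at 6 h, 4 at 16 h and 8 at 40 h, and a reference of matched harvest time 0 at 2 h and 4 at 16 h.

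Leaving out 1 well gave ranges of 0 to 3 for RA, 16 to 26 for TNF, 10 to 18 for RA plus TNF against vehicle, 2 to 12 against TNF, 6 to 19 against RA, 0 to 0 for the interaction, and 0 to 2, 1 to 9, 1 to 8 and 1 to 8 in the course. Signs reversed for CHAC1 (-0.34) and SLC3A2 (-0.071) in RA plus TNF against vehicle in set 1 and for SLC7A5 (0.075) against TNF in set 2. With the mean of probe sets they reversed for EIF2AK3 (-0.0554) in RA plus TNF against vehicle, ATF3 (-0.22) against RA and HERPUD1 at 2 h (-0.0283) and 16 h (-0.0912). Same-numbered wells of a set had correlations of their deviations from -0.15 to 0.00 at 40 h, with a median of -0.06. Wells of a set with unlike numbers also had a median of -0.06. In the course same-numbered wells ran from -0.22 to 0.11 with a median of 0.04, against a median of -0.03 for unlike numbers. These values do not settle whether the numbers pair the wells, and the main fit used no pairing. With the replicate block RA against vehicle had 1 member called and RA at 2 h 0, and the other comparisons had 18, 12, 8, 13, 0, 3, 2 and 7. Of the 2 at 16 h 1 was a lower amino acid gene.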
